A study of Caenorhabditis elegans with 18 samples.

Results

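The comparison covered wild-type Caenorhabditis elegans larvae of strain N2 that hatched without food and stayed in the first larval stage, L1, for 6, 12, 15 or 24 h. The deposited mean and error columns of these 4 conditions were taken from the 18 conditions of the series, and 24 h was set against 6 h, with 12 and 15 h between them. Larvae were kept in S-complete, a buffered liquid medium, at 20 °C, in cultures of 10 ml with 10000 larvae, and hatching spanned 2.5 h. Messenger RNA of whole animals was measured on Affymetrix C. elegans arrays, and each condition is 1 deposited mean of 3 arrays, called biological replicates by the authors. Fed larvae at 6 and 24 h, kept with the bacterium E. coli HB101 at 25 mg/ml, and larvae given food for 3 h after 12 h without it served for comparison. Values at hatching are those of larvae without food at 0 h, a time at which 50% of the animals had hatched. No transgene or mutation was involved, and the fed larvae at 24 h had reached the second larval stage, L2.

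Newly hatched larvae that meet no food stop before the first postembryonic cell divisions and can wait for days, a state called L1 arrest. Low insulin-like signalling keeps the FoxO factor DAF-16 active in this state, reserves of fat, protein and sugar are spent, and feeding releases the arrest within hours. Comparing 24 with 6 h asks what still changes in larvae that are already arrested.

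Between 6 and 24 h the propionate shunt enzyme gene acdh-1, oxygen-sensing guanylate cyclase genes, 4 fatty acid desaturase genes and proteasome subunit genes had higher means at 24 h. Cuticle collagens, glutathione transferases, enzymes of amino acid breakdown and several intestinal genes had lower means. In RNA of whole animals, fewer cells of a type and less RNA per cell cannot be told apart. The number of probe sets detected above background, at the authors' threshold of 1e-10, was 11563 at 6 h, 11656 at 12 h, 11362 at 15 h and 11691 at 24 h. Median intensity over all 22548 worm probe sets lay between 35.1 and 37.4 in the 4 conditions, and the median log2 of 24 h over 6 h was 0. The median error of a detected probe set was 9.03% to 9.50% of its mean. The 12 arrays of the 4 conditions shared the same 3 hybridization days.

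How many changes count as called depended on how the deposited errors were used. Dividing each difference by its combined error, on 4 degrees of freedom since each mean came from 3 arrays, left 0 of 22548 probe sets called after Benjamini-Hochberg adjustment at 0.05 (0%), although 1841 had an unadjusted p under 0.05 and the lowest adjusted p was 0.359. A limma slope of log2 intensity on hours over the 4 conditions also called 0 (0%), with 4104 probe sets at an unadjusted p under 0.05 and a lowest adjusted p of 0.169. Limited to 12460 probe sets detected at 1 or more of the 4 times, the limma slope called 65 higher and 155 lower (1.77% in either direction), a setting added after the data were seen. When the deposited errors were taken as known and the same ratio was read from a normal distribution, 851 probe sets were called higher (3.77%) and 828 lower (3.67%), or 7.45% in either direction. The last rule had been listed as an alternative and was taken up for naming genes only after the first had called none, so every gene called below is called on the assumption that the deposited errors measure the spread in full. Between 12 and 15 h, the closest pair of times, 1.98% of probe sets differed by more than 1.96 combined errors, where a normal deviate would do so in 5% of cases. The share was 15.5% between 6 and 24 h. Both shares were taken over all 22548 probe sets, of which 12460 were detected at 1 or more of the 4 times. They therefore cannot show whether the errors of detected probe sets are of the right size. Detection was gained by 675 probe sets and lost by 547, and a 2-fold difference with detection on the brighter side was met by 203 that were higher and 344 that were lower.

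Leading genes were the 15 highest and 15 lowest ratios among called probe sets that mapped to 1 named gene, were detected on the brighter side and had 12 and 15 h on the same side of 6 h, out of 539 and 474 candidates. The highest 2 belonged to clec-47 and acdh-1. For clec-47, a C-type lectin gene, mean intensity was 53.4 at 6 h, 407 at 12 h, 494 at 15 h and 884 at 24 h. The log2 difference between 24 and 6 h was 4.05 ± 0.38, where the error is propagated from the deposited errors. For acdh-1, a short-chain acyl-CoA dehydrogenase gene, the means were 223 at 6 h, 1572 at 12 h, 1702 at 15 h and 2693 at 24 h, a log2 difference of 3.59 ± 0.29. On the log2 scale both genes made most of this change before 12 h, and both were higher again at 24 h than at 15 h.

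Among leading genes already detected at 6 h, amt-1, cpr-2, mua-6 and ftn-1 had the next ratios. The intestinal ferritin gene ftn-1, which stores iron, had means of 338 at 6 h, 1029 at 12 h, 1056 at 15 h and 1470.2 at 24 h, a log2 difference of 2.12 ± 0.20. At hatching ftn-1 had stood at 1388, so the 24 h value lay near that of newly hatched larvae and the 6 h value far below both. The ammonium transporter gene amt-1 had means of 52.7 at 6 h, 144 at 12 h, 219.6 at 15 h and 289 at 24 h (2.45 ± 0.34). The cathepsin B-like protease gene cpr-2 had means of 254 at 6 h, 664 at 12 h, 840.1 at 15 h and 1304 at 24 h (2.36 ± 0.44). Neither amt-1 nor cpr-2 resembled its value at hatching, 20.3 and 14.9. The intermediate filament gene mua-6, which helps attach the epidermis to muscle and cuticle, had means of 96.9 at 6 h, 233.7 at 12 h, 307 at 15 h and 474 at 24 h (2.29 ± 0.28), against 366 at hatching.

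Other genes of this group went from no detection at 6 h to detection at 24 h. Of the 15 leading genes that were higher at 24 h, 9 were not detected at 6 h, and for them the ratio is given as a bound, the 24 h mean over the higher of the 6 h mean and the lowest intensity detected at 6 h. Such bounds leave out the errors of the means. That lowest intensity, 22.9, was taken over all probe sets, and some brighter probe sets were not detected, such as that of lipl-3 at 72.4. Each value given as "at least" therefore holds only under this definition and is not a strict lower limit. The bound was at least 7.86-fold for ddn-1, whose means were 16.1 at 6 h, 32.4 at 12 h, 54.2 at 15 h and 179.6 at 24 h. It was at least 6.18-fold for the claudin-like gene clc-24, with means of 19.8, 78.4, 66.5 and 141 at the same times. The bZIP factor gene zip-8 reached at least 4-fold higher intensity and subs-4 at least 3.95-fold. The nuclear hormone receptor gene nhr-127 had a bound of at least 2.29-fold, the carboxylesterase gene cest-29 at least 2.23-fold and the arrestin-domain gene arrd-22, which sat at the floor of 5 at 6 h, at least 2.14-fold.

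The 15 leading genes that were lower at 24 h included 2 C-type lectins and 2 cuticle collagens. The collagen gene col-80 had means of 2391 at 6 h, 1081 at 12 h, 669 at 15 h and 260.1 at 24 h, a log2 difference of -3.20 ± 0.31. A second collagen gene, col-159, had means of 2647 at 6 h, 1265 at 12 h, 901 at 15 h and 420.1 at 24 h (-2.66 ± 0.25), on a probe set that its name marks as open to cross-hybridization with similar sequences. The hedgehog-related gene grd-5 had means of 605 at 6 h, 289.6 at 12 h, 206 at 15 h and 92.1 at 24 h (-2.72 ± 0.33). Each of these 3 genes lost intensity at every step and stayed detected at 24 h, as did the neprilysin-like peptidase gene nep-17 (533, 232, 150.4 and 75.9) and hrg-11.2 (469.6, 220.2, 127 and 69.9).

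The other 10 leading genes of this group were not detected at 24 h. The C-type lectin genes clec-265 and clec-69 were 11.9-fold and 10.9-fold lower by their means (log2 -3.58 ± 0.59 and -3.44 ± 0.44). These are not bounds, since both 24 h means lay above 21.3, the lowest intensity detected at 24 h. Means of clec-265 were 274, 79.5, 44.4 and 23.01, and those of clec-69 were 287, 136.5, 65.0 and 26.3. The infection-response gene irg-4 had means of 201 at 6 h, 52.2 at 12 h, 25.2 at 15 h and 18.4 at 24 h, and cysl-2, a cysteine synthase-like gene of cyanide and sulfide handling, had means of 255 at 6 h, 45.04 at 12 h, 24.5 at 15 h and 26.03 at 24 h. Ratios of means, likewise not bounds, were 9.88-fold for txt-4 (-3.30 ± 0.47), 7.42-fold for dod-24 (-2.89 ± 0.71) and 7.1-fold for nspe-7 (-2.83 ± 0.79). Bounds of the remaining genes were at least 5.04-fold for the acid sphingomyelinase gene asm-3, at least 2.77-fold for nlp-25 and at least 2.71-fold for mig-21. The gene mig-21, a gene of neuroblast migration, reached the floor of 5. The plot of the leading genes shows the time course of all 30.

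**Figure D1:**
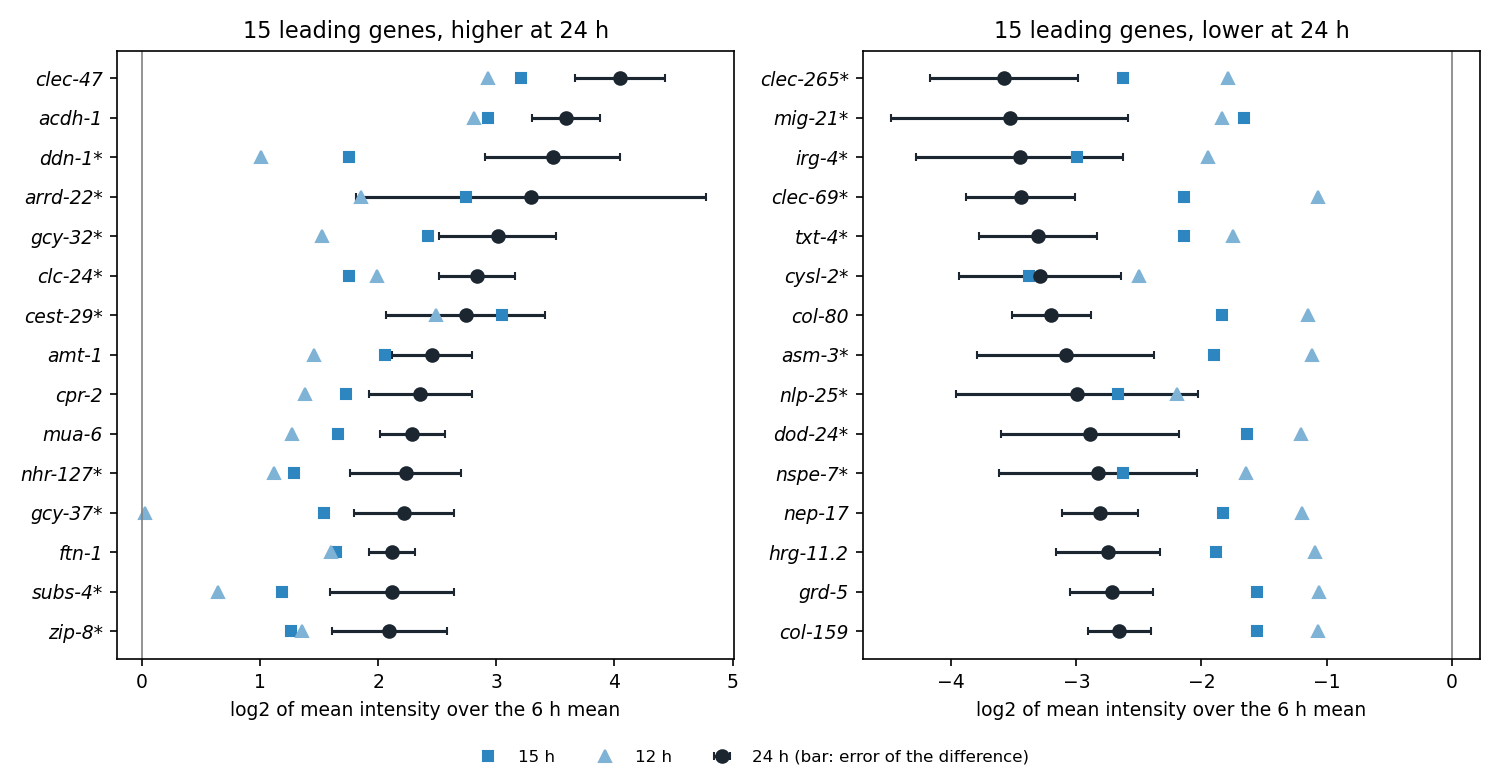
Log2 of the mean intensity at 12, 15 and 24 h over that at 6 h, for the 15 leading genes that were higher and the 15 that were lower at 24 h. Bars are the error of the 24 h difference propagated from the deposited errors, and asterisks mark genes not detected at 6 h or at 24 h. In 25 of the 30 genes the 4 means were strictly ordered in time.

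Of these 30 genes, 25 had means in strict order from 6 to 24 h, and the exceptions were clc-24, cest-29, zip-8, mig-21 and cysl-2. The choice by an extreme end ratio with 12 and 15 h on one side of 6 h favours such an order, which is therefore a description. Setting 15 and 24 h together against 6 and 12 h, with 8 degrees of freedom, called 37 probe sets higher and 51 lower (0.39% in either direction), a comparison added after the data were seen. It included 8 of the 30 genes, namely acdh-1, mua-6, ftn-1, clec-265, clec-69, col-80, nep-17 and col-159, which were chosen on the same 4 means, so that this count is a description too.

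Propionate, a product of branched-chain amino acid and odd-chain fatty acid breakdown, is cleared in C. elegans by a route that needs vitamin B12 or, when that route is limited, by a shunt through 3-hydroxypropionate. The genes of both routes were collected after acdh-1 had been seen to lead, so their values are a description. Within the shunt, 4 of 5 genes were called higher. After acdh-1, the first enzyme, the enoyl-CoA hydratase gene ech-6 had means of 961, 1874, 1899 and 2129 at 6, 12, 15 and 24 h (1.15 ± 0.13). The hydrolase gene hach-1 had means of 183, 332, 357 and 472 (1.37 ± 0.17), and the 3-hydroxypropionate dehydrogenase gene hphd-1 had means of 427, 991, 1034 and 1210.0 (1.5 ± 0.20). The last enzyme gene, alh-8, was not called, with means of 2975, 3514, 3549 and 3519.8 (0.24 ± 0.12). In the B12-dependent route, 4 of 5 genes were called lower. The methylmalonyl-CoA epimerase gene mce-1 had the largest difference of the 5, with means of 364, 174, 139.6 and 155 (-1.23 ± 0.16). The carboxylase subunit genes pcca-1 and pccb-1 changed by -0.31 ± 0.07 and -0.34 ± 0.07, the mutase gene mmcm-1 changed by -0.35 ± 0.11, and the cobalamin adenosyltransferase gene mmab-1, at 0.19 ± 0.13, was not called. Of the nuclear hormone receptor genes that activate the shunt, nhr-68 was called higher, with means of 165, 375, 370.0 and 453 (1.45 ± 0.15), while nhr-10 went from 212 to 193 and was not called (-0.13 ± 0.22). The related receptor gene nhr-114 was also called higher (0.95 ± 0.23).

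**Figure D2:**
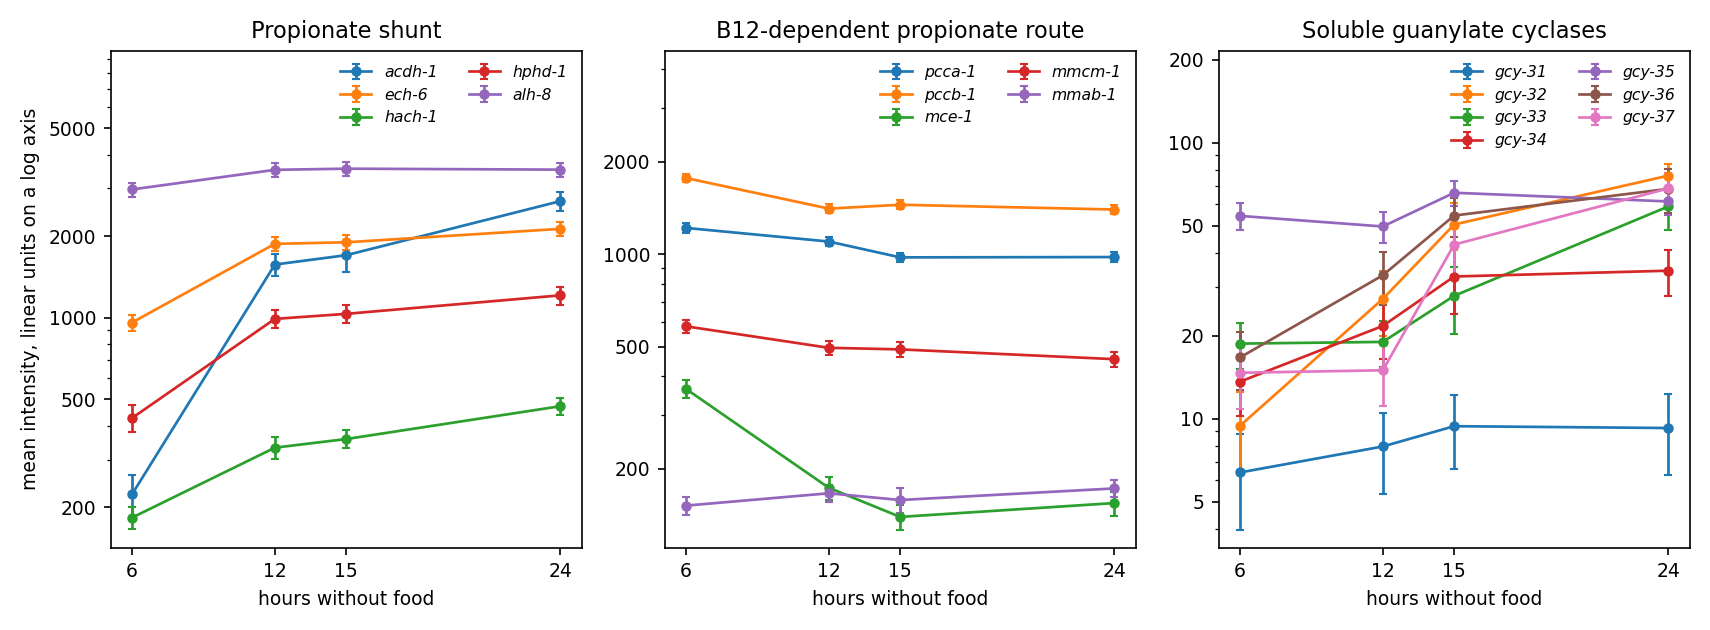
Mean intensity at 6, 12, 15 and 24 h without food for the 5 propionate shunt genes, the 5 genes of the B12-dependent route and the 7 soluble guanylate cyclase genes, on log axes, with the deposited errors as bars. For acdh-1 and hphd-1 most of the difference lies before 12 h, mce-1 goes from 364 to 174 in the same interval, and gcy-32, gcy-36 and gcy-37 have their highest means at 24 h.

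Soluble guanylate cyclases bind heme and serve as oxygen sensors in a few head and body cavity neurons of C. elegans. Since gcy-32 and gcy-37 were among the leading genes, all 7 family members were read out after their values were known, and 4 were called higher. For gcy-32 the means were 9.44 at 6 h, 27.2 at 12 h, 50.6 at 15 h and 76.1 at 24 h, for gcy-36 16.7, 33.1, 54.5 and 68.1 and for gcy-37 14.7, 15.0, 42.8 and 68.4, and these genes act in the URX, AQR and PQR neurons. The BAG neuron gene gcy-33 had means of 18.7, 18.99, 27.9 and 58.8. All 4 were undetected at 6 h and detected at 24 h, with bounds of at least 3.33-fold, at least 2.98-fold, at least 2.99-fold and at least 2.57-fold. The gene gcy-34 (13.6 to 34.4) was not called, nor was gcy-35, which was detected from the start (54.4, 49.8, 65.9 and 61.3), nor gcy-31, which was not detected at 6 or 24 h. Levels were low, with no member above 80 at any of the 4 times.

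Lists of genes by pathway, family and tissue were compared with all 17000 genes that had a uniquely mapped probe set, of which 703 were called higher (4.14%) and 585 lower (3.44%), with a median log2 difference of 0. The shares of members called in 24 of the lists are drawn beside these background shares.

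**Figure D3:**
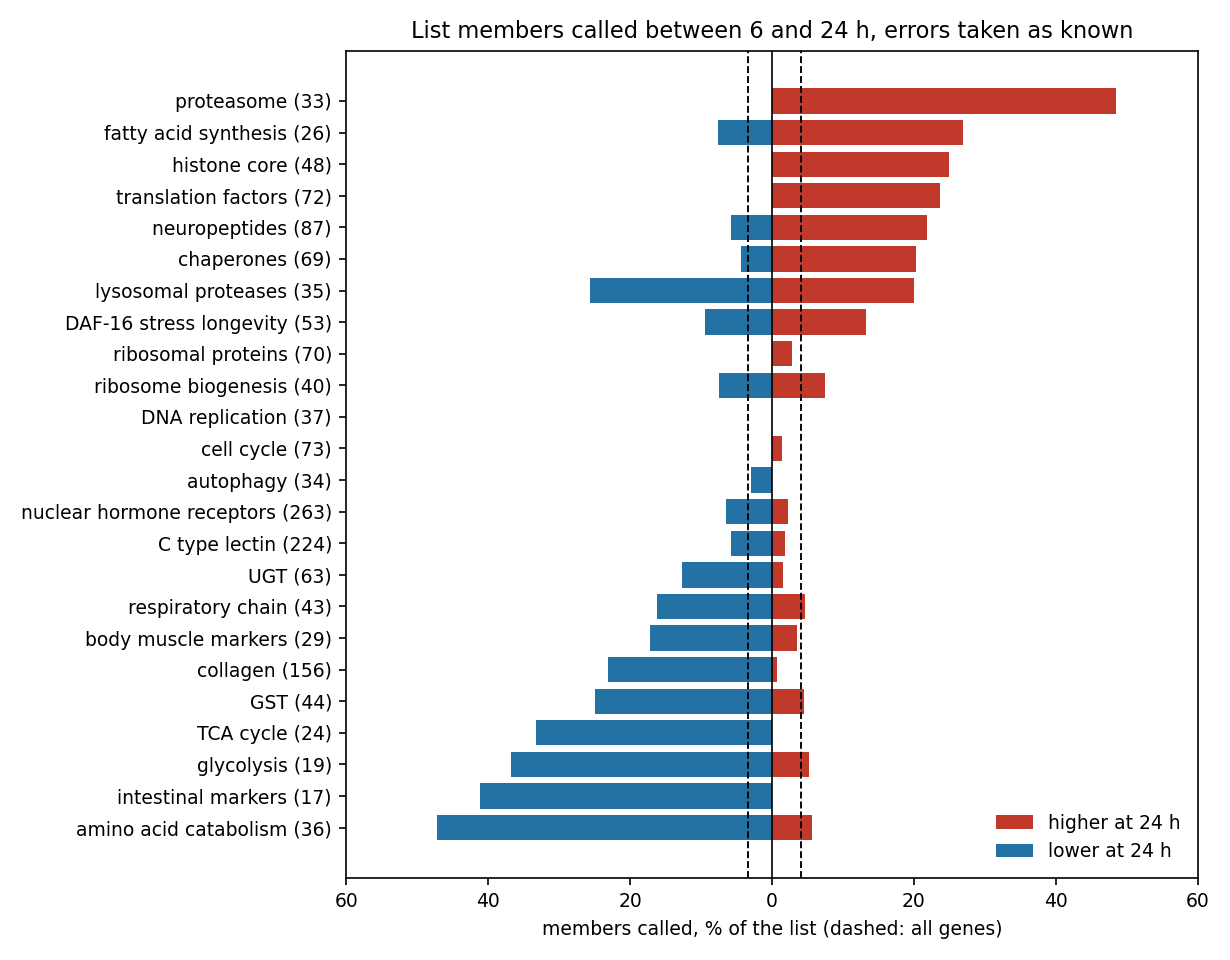
Percentage of the members of 24 gene lists called higher (right) or lower (left) at 24 h than at 6 h with the deposited errors taken as known. Numbers in parentheses are genes with a uniquely mapped probe set, and dashed lines are the shares over all 17000 genes, 4.14% and 3.44%. The longest bars are the proteasome on the right and amino acid catabolism on the left.

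The proteasome, which degrades ubiquitin-tagged proteins, had 16 of 33 subunit genes called higher (48.5%) and 0 lower, with a median log2 difference of 0.40. The largest differences were those of rpn-9, from 138 to 229 (0.74 ± 0.21), and pas-1, from 192 to 308 (0.68 ± 0.22). The median member stood 0.16 above its 6 h value at 12 h and 0.22 above it at 15 h. Of the 48 core histone genes, 12 were called higher and 0 lower (median 0.29), led by his-10 (59.6 to 110.3) and his-60 (44.7 to 80.2). Histone copies are nearly identical, so their probe sets need not be independent.

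Genes of protein synthesis gave different counts by group. Of 72 translation factors and aminoacyl-tRNA synthetases, 17 were called higher and 0 lower (median 0.15). The initiation factor gene eif-3.B went from 249 to 426 (0.77 ± 0.19) and the leucyl-tRNA synthetase gene lars-1 from 472 to 761 (0.69 ± 0.09). Of the cytosolic ribosomal protein genes, 2 of 70 were called, rpl-11.1 (0.78 ± 0.16) and rps-20 (0.29 ± 0.09), and the median was -0.01, or 0.08 after quantile normalization. Ribosome biogenesis genes had 3 called higher and 3 lower of 40, and fib-1, the nucleolar fibrillarin gene, stood at 1295, 1519.6, 1467 and 1354 (0.07 ± 0.11).

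Chaperone genes had 14 of 69 members called higher and 3 lower (median 0.14). The cytosolic Hsp70 gene hsp-1 had means of 1171 at 6 h, 1596 at 12 h, 1934 at 15 h and 2451 at 24 h, with 2082 at hatching. The small heat shock gene hsp-12.6, a DAF-16 target, was undetected at 6 h and had means of 21.3, 31.5, 42.1 and 84.4 (at least 3.69-fold higher). The Hsp90 gene hsp-90 (0.81 ± 0.09) and the protein disulfide isomerase genes pdi-2 (0.80 ± 0.16) and pdi-3 (0.91 ± 0.11) were called higher as well. The mitochondrial Hsp70 gene hsp-6 fell from 129.7 to 53.9 (-1.27 ± 0.37), and the mitochondrial hsp-60 went from 323 to 226 and was not called (-0.52 ± 0.27). The small heat shock gene hsp-12.2 fell from 727 to 287 (-1.34 ± 0.28), and the endoplasmic reticulum Hsp70 gene hsp-4 was not called (0.15 ± 0.48).

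Fatty acid synthesis had members called in both directions. Of 26 genes of fatty acid synthesis, desaturation and elongation, 7 were called higher and 2 lower (median 0.08). The delta-12 desaturase gene fat-2 had means of 1256 at 6 h, 2609.6 at 12 h, 2822 at 15 h and 3475 at 24 h (1.47 ± 0.14). The delta-6 desaturase gene fat-3 had means of 2108, 3762, 4022 and 4293 (1.03 ± 0.12). The genes fat-4 (0.76 ± 0.11) and fat-1 (0.53 ± 0.09), which encode the delta-5 and omega-3 desaturases, were also called higher. The elongase gene elo-2 (-0.39 ± 0.13) was called lower, as was mlcd-1 (-0.62 ± 0.12), which encodes malonyl-CoA decarboxylase and not an enzyme of synthesis. The delta-9 desaturase genes fat-5 (0.31 ± 0.23) and fat-6 (0.46 ± 0.20) were not called, and fat-7 was not detected at 6 or 24 h. Mitochondrial and peroxisomal fatty acid oxidation had 4 of 67 genes called higher, 2 of them (acdh-1 and ech-6) already described in the propionate shunt, and 1 lower, acdh-9 (-0.68 ± 0.13).

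Lysosomal lipases differed among themselves. The gene lipl-4 had means of 37.5, 90.8, 90.8 and 142 over the 4 times (3.77-fold higher, log2 1.92 ± 0.38). Those of lipl-3 were 72.4, 160.1, 189.7 and 196 (2.71-fold higher, 1.44 ± 0.44). Neither was detected at 6 h. Both 6 h means lay above the lowest intensity detected at 6 h, so these are ratios of means and not bounds. The gene lipl-5 was called higher (0.81 ± 0.21), as was the lipase gene lips-15 (1.23 ± 0.37), while lipl-2 was called lower, with means of 379, 224, 185 and 122 (-1.63 ± 0.23). The gene lipl-1 went from 249.7 at 6 h to 453 at 12 h and stood at 290.1 at 24 h, without a call between the ends (0.22 ± 0.27). The adipose-type lipase gene atgl-1 was not called (-0.25 ± 0.18). Proteases of the lysosome and gut were also called in both directions, with 7 of 35 called higher and 9 lower. After cpr-2, the aspartyl protease gene asp-13 (673 to 1908) and the cathepsin B-like gene cpr-6 (495 to 1238) were highest, and the carboxypeptidase gene ctsa-1.2 (249.7 to 61.3) and cpr-9 (1575 to 709.9) lowest.

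Neuropeptide genes had 19 of 87 members called higher and 5 lower (median 0.16). The FMRFamide-like gene flp-21 had means of 58.3 at 6 h, 88.9 at 12 h, 89.3 at 15 h and 218 at 24 h. It was not detected at 6 h, and its 3.74-fold higher value is a ratio of means and not a bound. Its probe set is of the type open to cross-hybridization with similar sequences, as are those of nlp-28 and nlp-29. The gene nlp-12 had means of 972, 1286, 1726 and 1942 (1.00 ± 0.16). The 5 genes called lower were nlp-25, given above as a bound, and nlp-29, nlp-24, nlp-33 and nlp-28, whose log2 differences lay between -1.48 and -1.0. Several of these peptides, nlp-29 above all, are known as antimicrobial peptides of the epidermis rather than as transmitters. The processing enzyme genes egl-3 and egl-21, a proprotein convertase and a carboxypeptidase that mature neuropeptides, were called higher (0.56 ± 0.11 and 0.68 ± 0.09). Among neuronal markers as a whole, 3 of 28 were called higher and 4 lower. Their median log2 difference was -0.21, and 19 had a lower and 9 a higher mean at 24 h. Their summed intensity nevertheless went from 11713 at 6 h to 12994 at 24 h. The part of these markers in the neuropeptide result was not tested. The synaptic marker genes rab-3 (287, 243, 228 and 247) and snb-1 (807, 800.2, 822 and 882) were not called.

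Cuticle collagens, the structural proteins of the worm's outer coat, gave the highest number of genes called lower of the 49 lists. Of 156 collagen genes, 36 were called lower (23.1%) and 1 higher, and the median log2 difference was -0.64. Of the 37 called probe sets, 27 are of the type open to cross-hybridization with similar sequences, so the calls need not be independent. Of the 79 collagens detected at 1 or more times, 74 had a lower mean at 24 h and 5 a higher one. Summed intensity of the list went from 131740.0 at 6 h to 74802 at 24 h. After col-80 and col-159, col-39 had means of 1176, 659, 489 and 242 (-2.28 ± 0.26), and the body-shape gene dpy-13 had means of 909.6, 829, 795 and 662 (-0.46 ± 0.15). The 1 member called higher, col-143, was not detected at any of the 4 times. The adult collagen gene col-19 and the furrow collagen gene dpy-7 were not detected at 6 or 24 h, nor was the moulting gene mlt-10. Of 145 genes of moulting, apical matrix and hedgehog-related proteins, 8 were called lower, led by grd-5 and the astacin protease gene nas-11 (252 to 52.2), and 1 higher, the patched-related gene ptr-3 (0.84 ± 0.29).

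Enzymes that conjugate foreign and oxidized compounds had more members called lower than higher. Glutathione transferases had 11 of 44 genes called lower (25%) and 2 higher (median -0.56). The gene gst-4, a standard target of the oxidative stress factor SKN-1, had means of 484 at 6 h, 191 at 12 h, 174 at 15 h and 169 at 24 h (-1.52 ± 0.25), most of the difference lying before 12 h. Means of gst-10 were 296, 128.8, 89.8 and 68.9 (-2.10 ± 0.28), and those of gst-16, not detected at 24 h, were 70.8, 36.6, 26.5 and 15.3 (at least 3.32-fold lower). The lowest ratio of the list, that of gst-25 (62.5 to 5), came from a probe set not detected at any of the 4 times. The genes called higher were gst-3 (0.53 ± 0.14) and gst-43 (0.48 ± 0.16). UDP-glucuronosyltransferases had 8 of 63 called lower and 1 higher, ugt-23 (0.89 ± 0.12). C-type lectins had 13 of 224 genes called lower and 4 higher, and only 49 of the 224 were detected at any of the 4 times. After the lectins already named, clec-209 (199 to 33.6) and clec-67 (393 to 68.4) were among the lower members and clec-61 (42.2 to 143) among the higher ones.

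Amino acid breakdown had the highest share of members called lower among the 24 drawn lists, 17 of 36 genes (47.2%), with 2 called higher, both in the propionate shunt (acdh-1 and hphd-1). The list was defined to hold the propionate pathways as well, so its counts are not independent of the routes described above. The ornithine aminotransferase gene oatr-1 had means of 504 at 6 h, 228 at 12 h, 197 at 15 h and 141 at 24 h (-1.84 ± 0.25). The tryptophan dioxygenase gene tdo-2, the entry to the kynurenine pathway, had means of 610.1 at 6 h, 264 at 12 h, 248 at 15 h and 187 at 24 h (-1.70 ± 0.24). Tyrosine and phenylalanine breakdown took part through pah-1 (-1.41 ± 0.27), hpd-1 (-0.73 ± 0.15), hgo-1 (-1.09 ± 0.14) and fah-1 (-1.05 ± 0.14), enzymes of one pathway. The proline breakdown gene alh-6 (-1.49 ± 0.27) was lower too, as was cth-2 (-1.48 ± 0.19), a further member of the list. In the kynurenine pathway haao-1 was called lower (51.2 to 16.4, at least 2.4-fold), and kynu-1 went from 462 to 339 and was not called (-0.45 ± 0.17).

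Central carbon metabolism also had more members called lower than higher. Of 24 tricarboxylic acid cycle genes, 8 were called lower and 0 higher (median -0.15), the isocitrate dehydrogenase subunit genes idhg-2 (-0.79 ± 0.11) and idhg-1 (-0.60 ± 0.08) most. Glycolysis had 7 of 19 called lower (median -0.30), among them pgk-1 (-0.63 ± 0.14) and ldh-1 (-0.63 ± 0.15), and 1 higher, pfkb-1.1 (0.35 ± 0.08). The glyceraldehyde-phosphate dehydrogenase genes gpd-2 and gpd-3 both changed by -0.29, with errors of 0.07 and 0.10. Both probe sets are of the type open to cross-hybridization with similar sequences, so these values need not be independent. Of 25 genes that make sugars or trehalose or serve the glyoxylate cycle, 5 were called lower and 0 higher (median -0.21), pck-1 and the pyruvate carboxylase gene pyc-1 (-0.59 ± 0.11) most. The gluconeogenic gene pck-1 had means of 1727 at 6 h, 993 at 12 h, 923 at 15 h and 763 at 24 h (-1.18 ± 0.12), whereas its paralog pck-2 stood at 4278, 4342, 4468 and 4165 and was not called (-0.04 ± 0.06). The glyoxylate cycle gene icl-1 had means of 6551, 4772, 4866 and 4614 and was not called (-0.51 ± 0.21). Respiratory chain genes had 7 of 43 called lower and 2 higher (median -0.11).

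**Figure D4:**
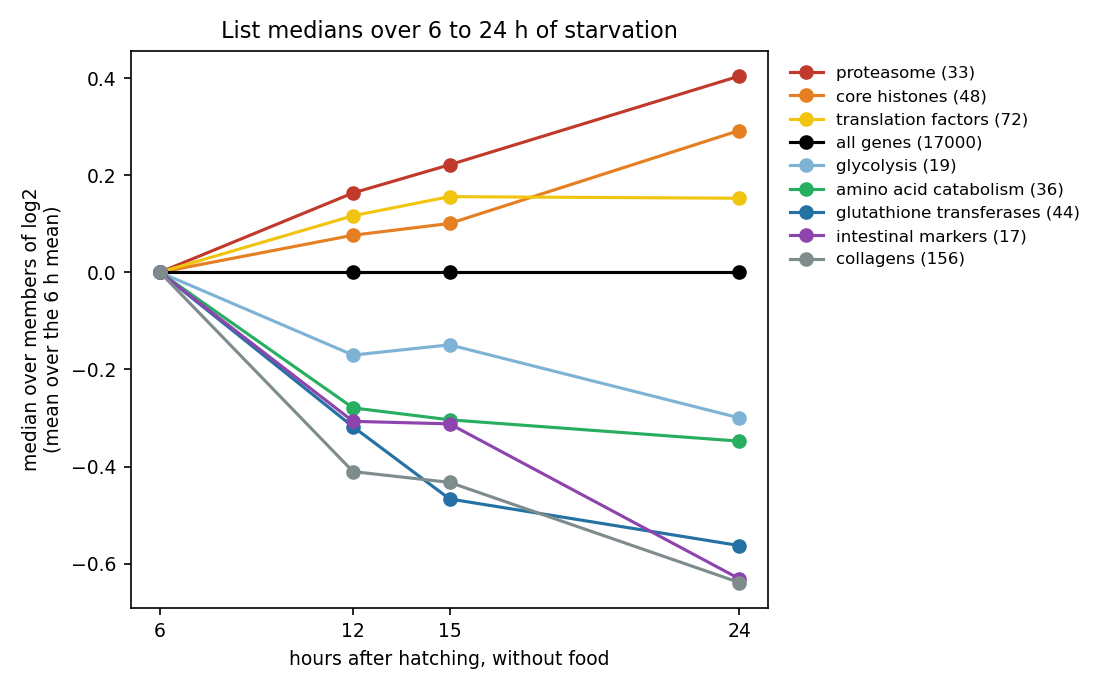
Median over list members of log2 of the mean intensity at 12, 15 and 24 h over that at 6 h, for 8 gene lists and all 17000 genes. The proteasome median reached 0.40 and the collagen median -0.64 at 24 h, and the all-gene median was 0 at each time.

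Many of these metabolic genes are active in the intestine, and intestinal markers were lower too. Of 17 intestinal markers, 7 were called lower and 0 higher, the median was -0.63, and summed intensity went from 15833 at 6 h to 8762 at 24 h. The acid phosphatase gene pho-1 had means of 144, 90.2, 63.2 and 36.97 (-1.97 ± 0.33), the proton pump gene vha-6 1455, 919, 732 and 521 (-1.48 ± 0.15), the peptide transporter gene pept-1 289, 227, 161 and 119.5 (-1.28 ± 0.23) and the brush border actin gene act-5 1323, 1036, 999 and 751 (-0.82 ± 0.13). The intestinal GATA factor gene elt-2 (120.3, 124, 135.5 and 101) and the esterase gene ges-1 (302, 389, 308 and 315) were detected at each time and not called. The part of the intestinal shift in the metabolic results was not tested.

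Other tissues gave smaller counts. Of 29 body muscle markers, 5 were called lower and 1 higher, pat-12 (0.93 ± 0.22), and the summed intensity went from 30764 at 6 h to 27229.8 at 24 h. The myosin heavy chain gene unc-54 had means of 2433, 2097, 1958 and 1504 (-0.69 ± 0.20), but myo-3, the other body wall myosin, was 306 at 6 h and 307 at 24 h, and the paramyosin gene unc-15 was not called (-0.13 ± 0.16). The actin genes act-2 (-0.45 ± 0.08) and act-3 (-0.52 ± 0.08) were called lower. The act-2 probe set is of the type open to cross-hybridization with similar sequences, so the calls of these actin genes need not be independent. Among 21 pharyngeal markers, 3 were called lower, including the pharyngeal myosin gene myo-2 (292, 245, 154 and 113), and the sum went from 3711 at 6 h to 2489.8 at 24 h. Epidermal markers, beside which the collagens can be set, had 1 of 12 called higher, vab-10 (0.90 ± 0.19), and 0 lower, their sum went from 2696 at 6 h to 3137 at 24 h, and the epidermal GATA factor gene elt-1 was detected at each time (122, 122.9, 138 and 152). Of the defining markers dpy-7 was at the floor of 5 at 6 and 24 h and, like wrt-2, pgl-1, nos-2 and pie-1, was detected at none of the 4 times. Germ line, cilium and early embryo markers had 0 members called in either direction of 30, 43 and 27. Only 10 germ line and 7 early embryo markers were detected at 1 or more times, and 23 and 22 members had a lower mean at 24 h, with medians of -0.35 and -0.48.

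Several genes of the starvation response were not called between 6 and 24 h. The acyl-CoA synthetase gene acs-2 had gone from 10.1 at hatching to 3465 at 6 h, was 2343 at 12 h and 2429.7 at 15 h and stood at 2954 at 24 h (-0.23 ± 0.15, not called), although its step from 6 to 12 h was called lower. The alcohol dehydrogenase gene adh-1 (6640.0, 5795, 5762 and 5341), the metallothionein gene mtl-1 (675, 805, 645 and 782) and the flavin monooxygenase gene fmo-2 (894, 673, 525 and 541) were not called. The superoxide dismutase gene sod-3, a DAF-16 target, stood at 554 at hatching, had means of 125, 200.4, 210.0 and 215 from 6 to 24 h and was not called (0.79 ± 0.33). The linker histone gene hil-1 and the fatty acid binding gene far-7 did rise further, from 719 to 1180.2 (0.71 ± 0.12) and from 1608 to 2411 (0.58 ± 0.10). Over a list of 53 genes linked to DAF-16, stress or lifespan, 7 were called higher and 5 lower. The higher ones included ftn-1, hsp-12.6 and lipl-4, and the lower ones dod-24, gst-10, gst-4 and dod-22. The dod-22 and dod-24 genes are known to be lowered by DAF-16 in adults.

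Of the regulators of the arrest named here, most were not called and a few were called higher. The FoxO gene daf-16 had means of 246, 287, 318 and 277 (0.17 ± 0.22) and the AMP-activated kinase gene aak-2 270.3, 279, 300.0 and 299 (0.14 ± 0.14), and neither was called. The cell cycle inhibitor gene cki-1 (-0.19 ± 0.11), the TOR kinase gene let-363 (-0.16 ± 0.12) and the autophagy genes lgg-1 (-0.11 ± 0.19) and lgg-2 (0.08 ± 0.18) were not called either. A second detected probe set of cki-1 had a difference of the opposite sign. The insulin receptor gene daf-2 and the insulin-like peptide genes daf-28, ins-4, ins-6 and ins-7 were not detected at 6 or 24 h, and of 24 insulin-like peptide genes 1, ins-35, was called higher (138 to 309). The receptor gene nhr-49, a regulator of fat metabolism, was called higher by a small step (0.29 ± 0.08). The developmental timing gene lin-28 was called higher, with means of 107 at 6 h, 124 at 12 h, 134.9 at 15 h and 165 at 24 h (0.63 ± 0.21). DNA replication had 0 of 37 members called in either direction, with a median of 0.27, and the cell cycle list had 1 of 73 called higher, with a median of 0.17. Autophagy had 0 of 34 called higher and 1 lower.

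Of the 3 steps between neighbouring times, the first held the most calls. With errors taken as known, 173 probe sets were called higher (0.767%) and 146 lower (0.648%) from 6 to 12 h, against 0 higher (0%) and 2 lower (0.00887%) from 12 to 15 h, and 11 higher (0.0488%) and 8 lower (0.0355%) from 15 to 24 h. The steps differ in length, and with 4 degrees of freedom each called 0, with 559, 60 and 186 probe sets at an unadjusted p under 0.05. In the authors' deposited table of tests between pairs of conditions, 1330, 652 and 791 probe sets had an unadjusted p under 0.05 for the 3 steps, and 0 passed the adjustment made here. For ftn-1 the authors' deposited table gave an unadjusted p of 0.00045 from 6 to 12 h, 0.653 from 12 to 15 h and 0.00429 from 15 to 24 h. For acdh-1 it gave 0.00241, 0.785 and 0.0537 in the same order.

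A few genes were called in the last step or in the middle of the course. Genes called from 15 to 24 h whose 15 h mean lay within 0.3 of the 6 h mean on the log2 scale were crt-1 and pgam-5, which were higher, and act-3, pdhb-1 and clik-1, which were lower. The change of pgam-5 was not late alone, since its means were 589, 727, 687 and 893 and the step from 6 to 12 h was called too. The calreticulin gene crt-1 had means of 548, 559, 524 and 702 on the probe set that led to its choice (a second, brighter probe set changed by 0.69 from 6 to 24 h), and pdhb-1, a pyruvate dehydrogenase subunit gene, had means of 960.5, 1041, 879 and 694. The calponin-like gene clik-1 had means of 3188, 2882, 2850.2 and 2296. Setting 12 and 15 h against 6 and 24 h called 0 probe sets with 8 degrees of freedom (0%; 342 at an unadjusted p under 0.05) and 4 higher and 15 lower with errors taken as known (0.0843% in either direction). The neuronal zinc finger gene egl-46 had its highest means in the middle (23.3 at 6 h, 69.7 at 12 h, 72.6 at 15 h and 26.6 at 24 h). It was not detected at 6 or 24 h, and neither its step from 6 to 12 h nor that from 15 to 24 h was called. The cytochrome P450 gene cyp-37A1 had means of 285, 543, 575 and 475. It was called higher from 6 to 12 h and at 24 h against 6 h, and was not called from 15 to 24 h. The sulfide oxidation gene sqrd-1 (428, 163, 137 and 154), the receptor gene nhr-11 (191, 75.2, 65.6 and 69.1) and grsp-4 (222, 94.9, 56.8 and 80.9) met the rule, like clec-265 and col-12, through a decline that was called from 6 to 12 h, and none of the 5 was called from 15 to 24 h.

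Fed larvae over the same hours gave the comparison with growth. The difference between the starved and the fed log2 change was called higher for 386 probe sets (1.71%) and lower for 336 (1.49%), with 8 degrees of freedom. The fed larvae at 24 h were L2, and their arrays shared 0 hybridization days with those of the starved larvae, so food, stage and hybridization day cannot be told apart. The leading genes had been chosen on the starved change, which is one side of this comparison, so their 13 calls, 6 higher and 7 lower, are a description. The gene grd-5 went from 64.7 at 6 h to 721 at 24 h in fed larvae, the opposite of its course without food. In fed larvae cysl-2 went from 277 at 6 h to 778 at 24 h and hrg-11.2 from 389 at 6 h to 1028 at 24 h. The means of acdh-1 were higher at 24 h in fed larvae too, going from 1024 at 6 h to 3067 at 24 h, a log2 change of 1.58, and those of ftn-1 went from 99.8 at 6 h to 304 at 24 h. The collagen gene col-80 was lower at 24 h with food as well, going from 486 at 6 h to 83.3 at 24 h. The gene lin-28 went with food from 111 at 6 h to 16.7 at 24 h, against a rise without.

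**Figure D5:**
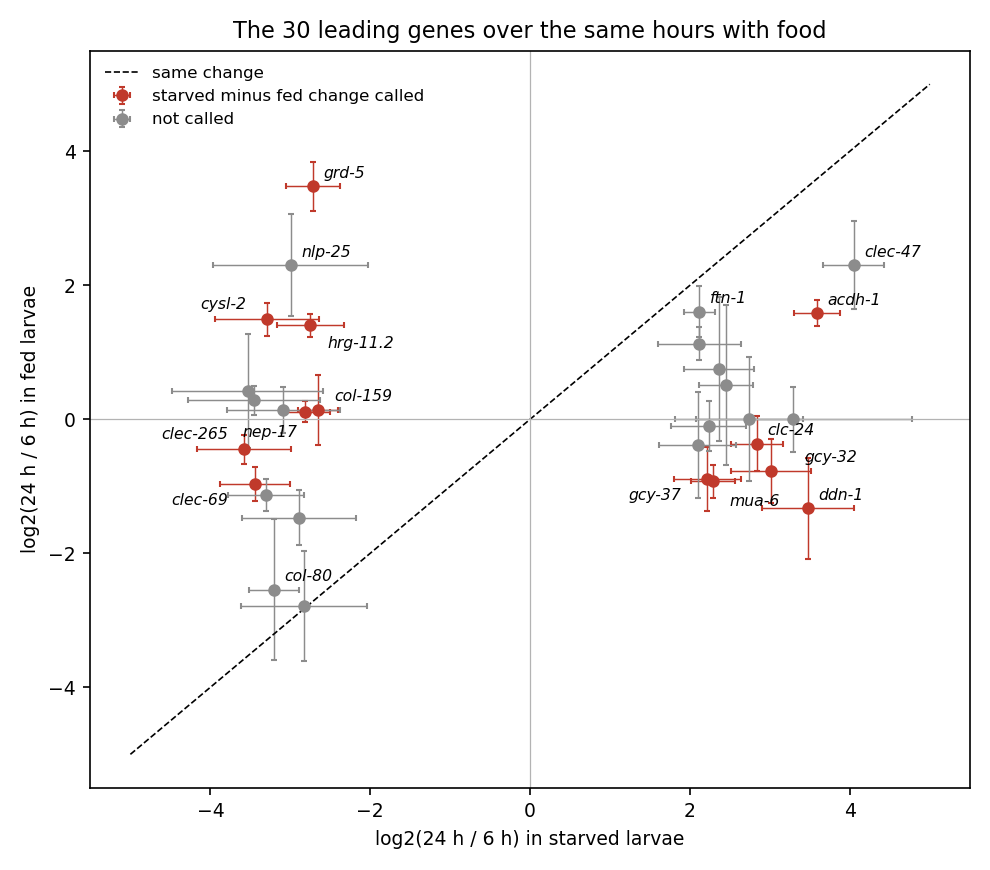
Log2 change from 6 to 24 h in starved larvae (horizontal) and in fed larvae (vertical) for the 30 leading genes, with errors propagated from the deposited errors. Red points are the 13 genes whose starved minus fed change was called, and the dashed line marks equal change. grd-5 lies highest at 3.48 with food and -2.72 without.

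Across lists, 37 of the 156 collagens were called lower in starved minus fed change, where all genes had 1.65% called lower and 1.7% higher, and the collagen median in fed larvae was 0.66. The neuropeptide list had 12 called higher and 6 lower. The proteasome had 0 called in either direction, with a fed median of 0.13. Amino acid breakdown had 7 called lower and 1 higher, with a fed median of -0.06.

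Larvae refed for 3 h after 12 h of starvation can be set beside those starved for 15 h. By the authors' deposited table, adjusted here, 198 probe sets were higher on refeeding (0.878%) and 262 lower (1.16%). Of the 30 leading genes, 20 had a refed mean on the side of 15 h opposite to their course in arrest, 10 in each direction, where the 15 h mean also took part in choosing them. The adjusted p passed 0.05 for 2 of the 30, acdh-1 and txt-4. The gene acdh-1 stood at 35.5 after refeeding against 1702 at 15 h of starvation, and txt-4 at 727 against 116. For irg-4 the refed mean was 1095 against 25.2, without a call. The shunt genes hphd-1 (65.3 against 1034) and ech-6 (319 against 1899) were lower after refeeding. Their adjusted p-values from the authors' deposited table were 0.0469 and 0.0490. The shunt genes hach-1 (log2 -0.67) and alh-8 (-1.14) had lower refed means without a call. In the B12-dependent route, mmcm-1 (-0.92), pccb-1 (-0.76), mmab-1 (-0.27) and pcca-1 (-0.18) also had lower refed means without a call. The epimerase gene mce-1 was 130.4 against 139.6. The refed means of the called guanylate cyclases lay near those at 15 h, as for gcy-32 (50.5 against 50.6) and gcy-37 (44.6 against 42.8). Refeeding moved the list median of amino acid breakdown by 0.63 and of the proteasome by 0.64 on the log2 scale, and that of collagens by -0.31. The medians of amino acid breakdown and of collagens, both below 0 over arrest, thus had opposite signs on refeeding.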

How the data were processed

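RNA of whole larvae was hybridized to Affymetrix C. elegans arrays, 3 per condition. The deposited intensity values are the authors' means of 3 replicates per condition, on a linear scale with a floor of 5, with an error for each mean. How that error was computed is not given in the sources used here, and it need not equal the spread between cultures. Detection p-values and p-values of pairs of conditions were also deposited by the authors, and the deposited error is carried as a score. A probe set counted as detected at the authors' threshold of 1e-10. No array-level values were used, so the number of arrays limits the precision.

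From these values 77 control probe sets were left out, and log2 ratios, their propagated errors and the tests were computed with Python 3.11.15, numpy 2.4.6, pandas 2.3.3 and scipy 1.17.1, and slopes with R 4.3.3 and limma 3.58.1, after tests on simulated data. Adjusted p-values are Benjamini-Hochberg values over all 22548 worm probe sets. Of these, 19155 were named through a probe mapping and 596 through the platform annotation, with current names from RefSeq. Lists use 1 probe set per gene, the brightest that maps uniquely. The difference between 24 and 6 h was to be tested with 4 degrees of freedom, which called 0, and the calls named in the text come from the normal distribution instead.

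The comparison, the gene lists and the alternatives were chosen with earlier results of these data known. Text names the leading, late and middle genes, fixed genes, and the 2 highest and 2 lowest called members of lists; other members of lists, the propionate, kynurenine and guanylate cyclase groups and tissue markers with their neighbours were picked after their values were seen. The list of translation factors was corrected after values were seen by taking out an intermediate filament gene and a splicing factor gene. Several probe sets may match similar sequences. Those of hgo-1, nspe-7 and col-12, and the one that led to the choice of crt-1, are also of the type open to cross-hybridization. Alternatives were another distribution, error scale, pseudocount (16), quantile normalization, a detection filter, a minimum fold and other end times.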

Additional observations from a re-analysis of the deposited data

Results flagged for a closer look

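The change from 6 to 24 h differed between starved and fed larvae, with 8 degrees of freedom and adjustment over all probe sets, for 31 of the named genes. Values are the log2 change without food minus that with food. Fed larvae at 24 h were L2, and their arrays shared 0 hybridization days with the starved ones, so food, stage and day cannot be told apart.

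Among the leading genes that were higher at 24 h without food, the difference was 4.81 for ddn-1, 3.78 for gcy-32, 3.21 for mua-6, 3.2 for clc-24, 3.11 for gcy-37 and 2.01 for acdh-1. The guanylate cyclase gene gcy-36 was at 3.08. Of these, ddn-1, gcy-32, clc-24, gcy-37 and gcy-36 were not detected at 6 h without food, so the size of their difference rests on a value not above background. Among the leading genes that were lower, it was -6.19 for grd-5, -4.78 for cysl-2, -4.15 for hrg-11.2, -3.13 for clec-265, -2.93 for nep-17, -2.8 for col-159 and -2.48 for clec-69. The same limit holds for cysl-2, clec-265 and clec-69, which were not detected at 24 h without food.

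In metabolism the difference was -2.24 for icl-1, -2.2 for lipl-1, -1.55 for tdo-2 and -1.33 for pck-1. For icl-1 and lipl-1 the change without food was not called (-0.51 ± 0.21 and 0.22 ± 0.27), and with food it was 1.74 and 2.42. In the B12-dependent propionate route the difference was -1.33 for mce-1, -0.76 for mmcm-1 and -0.46 for pccb-1, while the shunt regulator nhr-68 was at 1.12. The pyruvate dehydrogenase gene pdhb-1 was at -0.54 and the sulfide oxidation gene sqrd-1 at -1.81.

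Of the remaining genes, lin-28 differed by 3.36, since its mean with food went from 111 at 6 h to 16.7 at 24 h, and hsp-1 differed by 1.28. The collagen gene col-12 was at -3.81, gst-4 at -1.99, nhr-11 at -1.43, clik-1 at -0.89 and act-3 at -0.6. The genes were named for their course without food or fixed by name, so the first group does not show how common such differences are; over all 22548 probe sets 386 were called higher and 336 lower.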

How the results depend on the processing

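Between 24 and 6 h, the counts of called probe sets went from 0 with 4 degrees of freedom to 851 higher and 828 lower with the normal distribution. Under that distribution the counts were 183 and 280 with a minimum of 2-fold, 125 and 153 with 12 h as the start, and 310 and 333 with 15 h as the end, and quantile normalization, errors on the log2 scale and the detection filter kept them within 1.5 times. The limma slope went from 0 to 65 higher and 155 lower over detected probe sets only. With the normal distribution the steps gave 173 and 146, 0 and 2, and 11 and 8 calls higher and lower, and 12 and 15 h against the ends gave 4 and 15, each against 0 with fewer degrees of freedom. The starved minus fed change had 738 higher and 571 lower calls over detected probe sets only. Of the 30 leading genes, 13 kept their call with 12 h as the start and 17 lost it, 22 kept it with 15 h as the end, and 29 kept it with errors on the log2 scale. The value of crt-1 turned to -0.0638 with 15 h as the end, and that of cyp-37A1 to -0.192 with 12 h as the start; other end times leave out part of the course. The median of ribosomal protein genes changed sign with quantile normalization. No paired analysis was possible because the deposited values are means over the replicates, and for the same reason leaving out each replicate was not run. The authors' p-value for 24 against 6 h and the share of promoters with a motif were not used here. Calls rest on errors whose definition is not given in the sources used here. Genes near the floor have only bounds by the definition given above, which are not strict lower limits.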
